A study of Mus musculus with 12 samples.

Results

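The nuclear subunits of respiratory complex I were followed across 12 RNA-seq libraries of mouse skeletal muscle. Members were the genes whose symbol starts with Ndufa, Ndufb, Ndufc, Ndufs or Ndufv, without the assembly factors named Ndufaf and without 3 symbols that end in -ps, a mark of pseudogene copies. This gave 42 of the 26570 genes in either of 2 deposited tables. There were 40 members of 24093 genes in the table of the Chow and HFD libraries, 42 of 24453 in the table of the Vehicle and PCN libraries, and 40 of 21976 in both. The rule reads gene names and no measured value, but it was set with earlier results of these data known.

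The mice were C57BL/6N, began their diets when 6 weeks old and stayed on them for 18 weeks. Each of 4 groups had 3 libraries. Chow mice (libraries 8, 17 and 19) ate regular chow and HFD mice (4, 30 and 38) a high-fat diet, both with no treatment listed. Vehicle mice (15, 23 and 55) and PCN mice (5, 11 and 27) also ate the high-fat diet and were injected into the peritoneal cavity daily for 4 days, Vehicle with corn oil holding 30% DMSO and PCN with 50 mg/kg of PCN. PCN is pregnenolone carbonitrile, a synthetic steroid that activates the rodent pregnane X receptor. The sources used here do not say which muscle was taken, whether the Chow and HFD mice were handled like the injected mice, or whether separate mice gave the 3 libraries of a group. P-values below thus measure only the spread between these libraries, which may be technical. In bulk muscle, fewer cells of a type and less RNA per cell cannot be told apart.

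Complex I takes electrons from NADH, hands them to ubiquinone and pumps protons across the inner mitochondrial membrane. Its N module oxidises NADH and its Q module reduces ubiquinone, both in the arm that reaches into the matrix, while a membrane arm with a proximal and a distal part pumps the protons. The core subunits carry the flavin, the iron-sulphur clusters and the quinone site. The remaining nuclear subunits, called supernumerary, surround the core and are needed for its assembly and stability, and the proton pumps of the membrane arm are encoded by the mitochondrial genome. In muscle, slow and other oxidative fibres hold more mitochondria than glycolytic fibres.

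Of the 42 members, 39 had enough counts to be tested in every comparison. The other 3, Ndufb4c (chr15:73809507-73809896), Ndufa11b (chr16:22053510-22053933) and Ndufs6b (chr7:81161397-81161744), are annotated as processed pseudogenes. Ndufb4c had 2 counts in all Chow and HFD libraries together and 3 in all Vehicle and PCN libraries. Ndufa11b and Ndufs6b, analysed only in Vehicle and PCN, had 2 counts and 1 count there. Among the 39, the label complex I holds by name for 37: Ndufa4 is now counted with complex IV, and Ndufa4l2 is a relative of Ndufa4 induced by low oxygen. Ndufb1 (ENSMUSG00000113902) is annotated as a long noncoding RNA from a bidirectional promoter, so its counts are those of the locus. Exons of 18 members overlap another gene, 16 of them on the opposite strand and 7 over more than 10% of their exonic bases. The largest overlap was that of Ndufb6 with Smim27, followed by Ndufa13 with Tssk6 (29.98%) and Ndufb9 with Gm49356 (19.5%). No source used here states whether counting used strand, so reads of such pairs, and of near-identical copies elsewhere in the genome, cannot be separated.

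Library totals ran from 12770308 counts in Chow 8 to 19739226 in PCN 27. The muscle genes Acta1 and Ckm were high in every library, at 9466 to 17710 and 11340 to 23620 CPM (counts scaled to library size, with TMM factors over all 12 libraries). Genes of the mitochondrial genome took between 10.775% of counts in HFD 4 and 20.444% in Chow 17. The members together took between 0.2499% in HFD 4 and 0.5057% in Chow 17. The lowest count of a tested member in a library was 4 (Ndufa4l2). 8 slow-fibre genes of the Chow and HFD table stood apart in a pair of Chow libraries, with a mean log2 CPM of 5.87 in Chow 17 and 5.83 in Chow 19 against 1.83 in Chow 8 and 0.64 to 1.70 in HFD. Of these genes only Myh7b and Tpm3 were analysed in all 4 groups, where PCN 5 had the highest mean at 4.15. Myh7b had no count in PCN 11, and it was the only gene of the marker lists analysed in all libraries to be at 0 in any.

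The members were high in the same libraries and low in the same libraries, with a 1.90-fold range of their mean. The mean log2 CPM of the 39 members was 6.19, 6.62 and 5.95 in Chow 8, 17 and 19, and 5.69, 5.92 and 6.07 in HFD 4, 30 and 38. In Vehicle 15, 23 and 55 it was 6.02, 6.18 and 6.33, and in PCN 5, 11 and 27 it was 6.28, 6.17 and 5.69. Group means were 6.25 ± 0.34 for Chow, 5.89 ± 0.19 for HFD, 6.18 ± 0.16 for Vehicle and 6.05 ± 0.31 for PCN (SD, n = 3), and the ranges of all 4 groups overlapped, with Chow 19 below HFD 38 at the edge of the HFD and Chow comparison. Chow 17 was the highest library for 37 of the 39 members, while it was the highest for 8.46% of the 13375 genes tested over all libraries. PCN 27 was the lowest library for 23 members, HFD 4 for 14 and Chow 19 for Ndufb1 and Ndufb4. Over all genes, PCN 27 was the lowest for 16.2%, HFD 4 for 9.72% and Chow 19 for 9.16%. PCN 27 was also the highest library for 18.0% of all genes, the largest share of any library at either end.

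Most of the spread of a member was shared with the other members. The median SD of a member's log2 CPM over the 12 libraries was 0.29, and it was 0.12 once the mean of the members was subtracted. Over all genes tested, the median SD was 0.32. The correlation of a member with the mean of the others, over the 12 libraries and given as a description, had a median of 0.917. It was highest for Ndufa5 (0.975) and lowest for Ndufb2 (0.644). All these values share library size scaling, so they are not independent of each other.

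**Figure D1:**
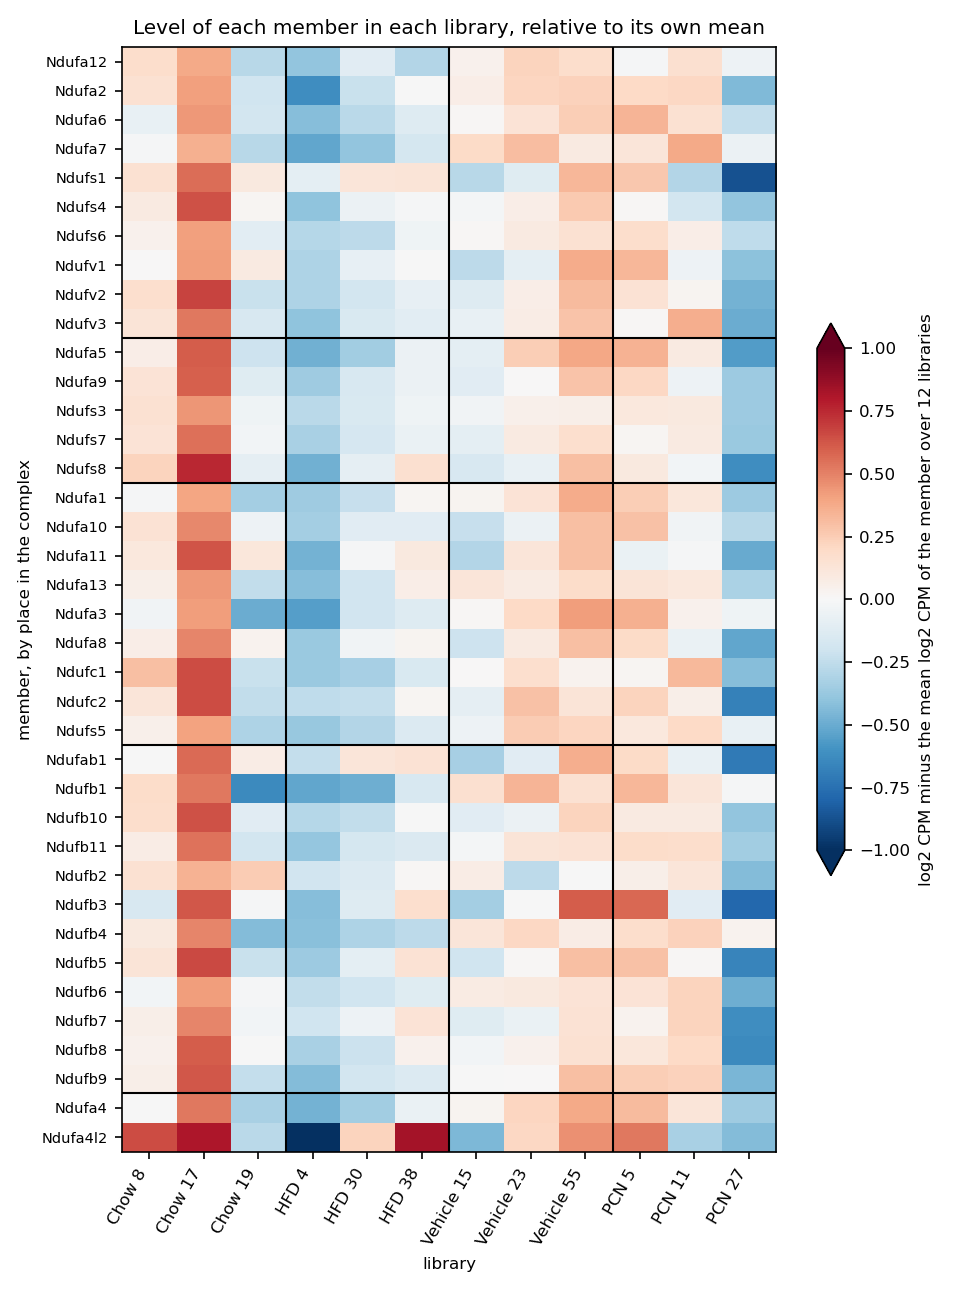
Heat map of the log2 CPM of 38 members (rows, ordered as N module, Q module, proximal membrane arm, distal membrane arm and the Ndufa4 pair, with lines between) in 12 libraries (columns), each minus the mean of the member over all libraries. Chow 17 is high in nearly every row, HFD 4 and PCN 27 are low in most rows, and Ndufa4l2 in HFD 4 lies beyond the colour scale.

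Levels differed widely between members. Per kilobase of the principal transcript and averaged over the 12 libraries, the median member stood at 96.4 CPM per kb. Ndufa4, at 223 CPM per kb, and Ndufa12, at 178, were among the highest. Ndufa4l2 was lowest at 1.81 CPM per kb, and Ndufb2 (3.12) and Ndufab1 (18.9) came next. These values depend on which transcript is taken as principal, and for Ndufb1, which has none, the whole exonic length was used. For a gene with several principal transcripts, the mean of their lengths was taken, here and below.

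High-fat diet without injection was compared with chow first. Fitted levels of all 39 members were lower in HFD. Their median log2 fold change was -0.36, where 49.9% of all genes tested were lower and the median of all genes was 0.0005. The members ranged from -0.55 for Ndufc1 to -0.20 for Ndufab1. None passed an adjusted p of 0.05 in edgeR (0.0% of 12686 genes did), and 3 had an unadjusted p under 0.05, all lower, where 7.69% of all genes reached it and 3.91% did so with a lower level. DESeq2 also called no member, with 0.342% of all genes called. In DESeq2, 12 members had an unadjusted p under 0.05, all lower, where 6.49% of all genes reached it and 3.35% did so with a lower level.

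Ndufc1, a small subunit of the proximal membrane arm (chr3:51404677-51408988), had the lowest p of this comparison. It stood at 37.8, 48.4 and 26.4 CPM in Chow and 23.8, 24.4 and 27.7 in HFD. Its lowest Chow library, Chow 19, lay below the highest HFD library, so the groups overlapped, and the log2 fold change was -0.55 ± 0.20 (SE; adjusted p = 0.635). Ndufs7, the core subunit that carries the last iron-sulphur cluster before ubiquinone, stood at 113, 149.9 and 100.3 CPM in Chow and 81.6, 91.3 and 97.5 in HFD. All its HFD libraries lay below all its Chow libraries, with a log2 fold change of -0.41 ± 0.17 (SE; adjusted p = 0.635). Ndufa10, a proximal membrane arm subunit with a kinase-like fold, likewise kept the groups apart, at 192, 242 and 168 CPM in Chow and 137, 160.3 and 161 in HFD. Its log2 fold change was -0.37 ± 0.16 (SE; adjusted p = 0.644). Next by p were Ndufb10 of the distal arm, at -0.42 ± 0.19 (SE; adjusted p = 0.645), and Ndufa5 of the Q module, at -0.46 ± 0.21 (SE; adjusted p = 0.645).

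For 9 members every HFD library lay below every Chow library, where 7.04% of all 13375 genes did so. The reverse held for no member and for 5.65% of all genes. Among the 9 were Ndufa8, Ndufa10, Ndufa11, Ndufb2, Ndufb6, Ndufs4, Ndufs7 and Ndufv1. Some gaps were thin, with the highest HFD and lowest Chow library at 184.0 and 184.5 CPM for Ndufv1. They were at 40.76 and 41.07 CPM for Ndufa11 and at 101.0 and 101.9 for Ndufa8. By place in the complex the medians were close to each other, at -0.37 for 10 N module members, -0.40 for 6 of the Q module, -0.32 for 9 of the proximal arm and -0.36 for 12 of the distal arm. Within each place all members were lower. The 7 core subunits had a median of -0.33.

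The size of this difference rested in part on single Chow libraries. Leaving out Chow 17 gave a median of -0.17 and leaving out Chow 19 gave -0.50. Leaving out both gave -0.27, with Chow 8 as the only Chow library left and so no spread within Chow. Without Chow 19, 32 members had an unadjusted p under 0.05 and a lower level (7.57% of all genes did) and 2 passed the adjusted threshold, Ndufb1 and Ndufc1 (1.69% of all genes passed). Such an unadjusted p was reached by 10 members without HFD 38 and by 4 without Chow 8. It was reached by 0 members without Chow 17, without HFD 4 or without HFD 30. Shares over all genes are not given for these fits. With the slow-fibre level as a covariate the median was -0.20, and 0 members had an unadjusted p under 0.05. The slow-fibre genes themselves were lower in HFD for 8 of 8 tested, with a median of -4.62, and adipocyte markers were higher for 6 of 7 (median 0.53, summed level 107 to 511 CPM in HFD and 66.6 to 299 in Chow). Macrophage markers were higher for 6 of 6 (median 0.56, summed level 31.04 to 84.0 CPM in HFD and 25.3 to 47.4 in Chow). Red blood cell genes were lower for 5 of 5 (median -0.71, 49.0 to 60.1 CPM in HFD and 69.9 to 136 in Chow). Matrix and fibroblast genes were higher for 3 of 5 (median 0.28, 486 to 871 CPM in HFD and 483 to 715 in Chow). Of these genes of other cell types none passed the adjusted threshold, and their part in the result was not tested.

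**Figure D2:**
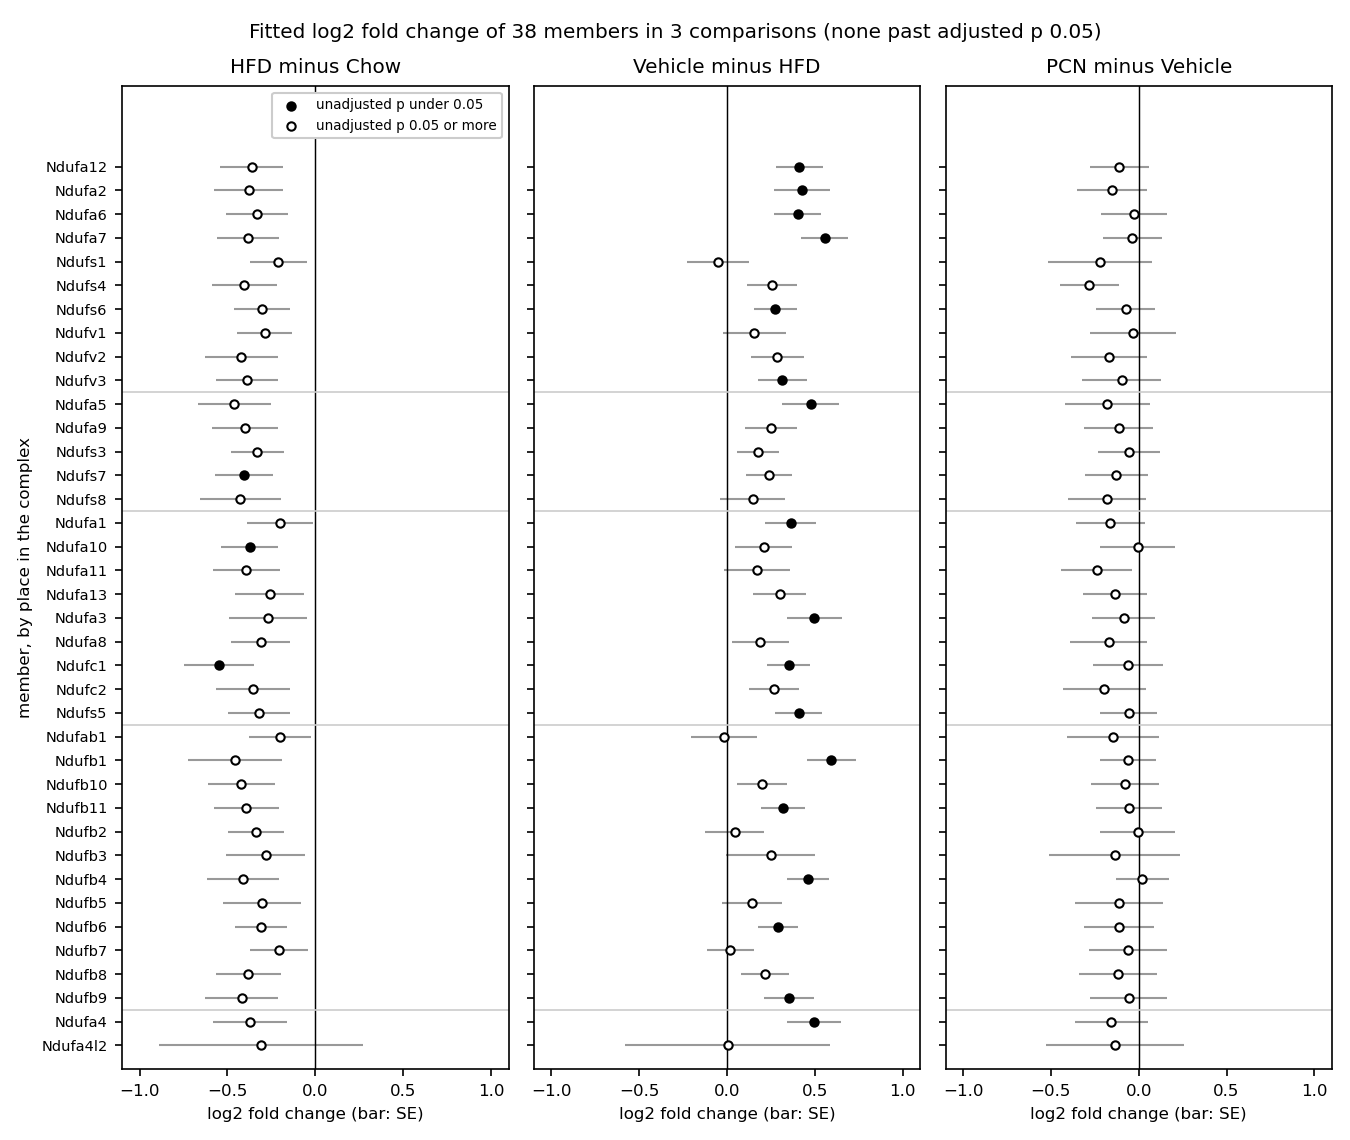
Fitted log2 fold changes (points) with SE (bars) of 38 members, in the same row order as the heat map, for HFD minus Chow, Vehicle minus HFD and PCN minus Vehicle. All 38 points lie below 0 in the first panel, 36 lie above 0 in the second and 37 lie below 0 in the third. Filled points, 3 in the first panel and 17 in the second, have an unadjusted p under 0.05.

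Vehicle injection in high-fat-fed mice was then set against high-fat diet alone. Here 37 of 39 members had a higher fitted level in Vehicle, with a median log2 fold change of 0.27, where 49.9% of all 12746 genes tested were higher and their median was -0.0014. An unadjusted p under 0.05 was reached by 18 members, all higher, against 8.66% of all genes. None passed an adjusted p of 0.05 in edgeR, where 1.51% of all genes did. DESeq2 called 4 members, Ndufa4, Ndufa7, Ndufb1 and Ndufb4, where it called 7.93% of the genes it tested. In edgeR, 2 members passed with no expression filter (2.64% of all genes did), 6 with the slow-fibre level as a covariate (4.61%) and 3 without Vehicle 55 (9.05%). No member passed in any other edgeR fit of this comparison. On leaving out 1 library, members with an unadjusted p under 0.05 ran from 6 (without HFD 4) to 21 (without HFD 38). They were 8 in the fit of all 12 libraries and 25 with the slow-fibre covariate. Shares over all genes are not given for these unadjusted counts. The slow-fibre level here was that of Myh7b and Tpm3 alone, with Myh7b as low as 0.116 CPM in Vehicle 15 and 0.162 in HFD 4. This comparison joins the 2 deposited tables, so the injection cannot be told apart from any difference between the tables, and it shares the HFD libraries with the comparison above.

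Ndufb1, at a locus of the distal arm (chr12:101968090-101977068), had the lowest p and the largest log2 fold change, 0.59 ± 0.14 (SE; adjusted p = 0.0642). It stood at 27.1, 34.2 and 15.3 CPM in Chow, 16.6, 17.0 and 21.3 in HFD, 26.6, 30.0 and 26.5 in Vehicle, and 30.0, 25.8 and 23.6 in PCN. The highest HFD library lay below every Vehicle and every PCN library, while Chow 19 was the lowest library of all. Cpsf2, on the opposite strand, overlaps 12.75% of its exonic bases. Ndufa7, a supernumerary subunit of the N module (chr17:33824572-33838317), stood at 45.5, 58.9 and 37.8 CPM in Chow, 32.0, 34.9 and 40.6 in HFD, 52.4, 56.9 and 48.9 in Vehicle, and 50.1, 59.8 and 44.2 in PCN. HFD again lay below Vehicle and PCN without overlap, and the highest library was PCN 11 instead of Chow 17. Its log2 fold change was 0.55 ± 0.13 (SE; adjusted p = 0.0662). Ndufb4, a distal arm subunit (chr16:37647170-37654453), stood at 89.5, 118 and 61.9 CPM in Chow, 62.6, 67.4 and 69.7 in HFD, 90.7, 96.5 and 87.8 in Vehicle, and 94.5, 98.1 and 85.5 in PCN, and separated HFD from Vehicle and PCN in the same way. Its log2 fold change was 0.46 ± 0.12 (SE; adjusted p = 0.0816).

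Ndufa4 stood at 115, 167 and 92.5 CPM in Chow, 83.6, 91.0 and 111 in HFD, 118, 134 and 151 in Vehicle, and 144, 126 and 90.6 in PCN. All Vehicle libraries lay above all HFD libraries, whereas PCN 27 lay among the HFD values, and the log2 fold change was 0.50 ± 0.15 (SE; adjusted p = 0.13). Ndufa3 of the proximal arm, one of the smallest subunits, stood at 67.0, 91.7 and 48.5 CPM in Chow, 46.7, 60.2 and 62.7 in HFD, 69.3, 78.7 and 91.5 in Vehicle, and 88.0, 70.7 and 66.6 in PCN. Both injected groups lay above HFD, with a log2 fold change of 0.50 ± 0.16 (SE; adjusted p = 0.134).

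In 19 of 39 members every Vehicle library lay above every HFD library, where 11.8% of all genes did so. The reverse held for no member and for 11.0% of all genes. The 19 covered all places of the complex, with 6 of the N module (Ndufa2, Ndufa6, Ndufa7, Ndufa12, Ndufs6 and Ndufv3), 2 of the Q module (Ndufs3 among them), 5 of the proximal arm (Ndufa1, Ndufa3, Ndufa13, Ndufc1 and Ndufs5), 5 of the distal arm (Ndufb1, Ndufb4, Ndufb6, Ndufb9 and Ndufb11) and Ndufa4. The medians were 0.30 for the N module, 0.24 for the Q module, 0.30 for the proximal arm and 0.23 for the distal arm. The core subunits had a median of 0.17. Ndufs1 (-0.05) and Ndufab1 (-0.02) were the 2 members with a fitted level below that in HFD.

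**Figure D3:**
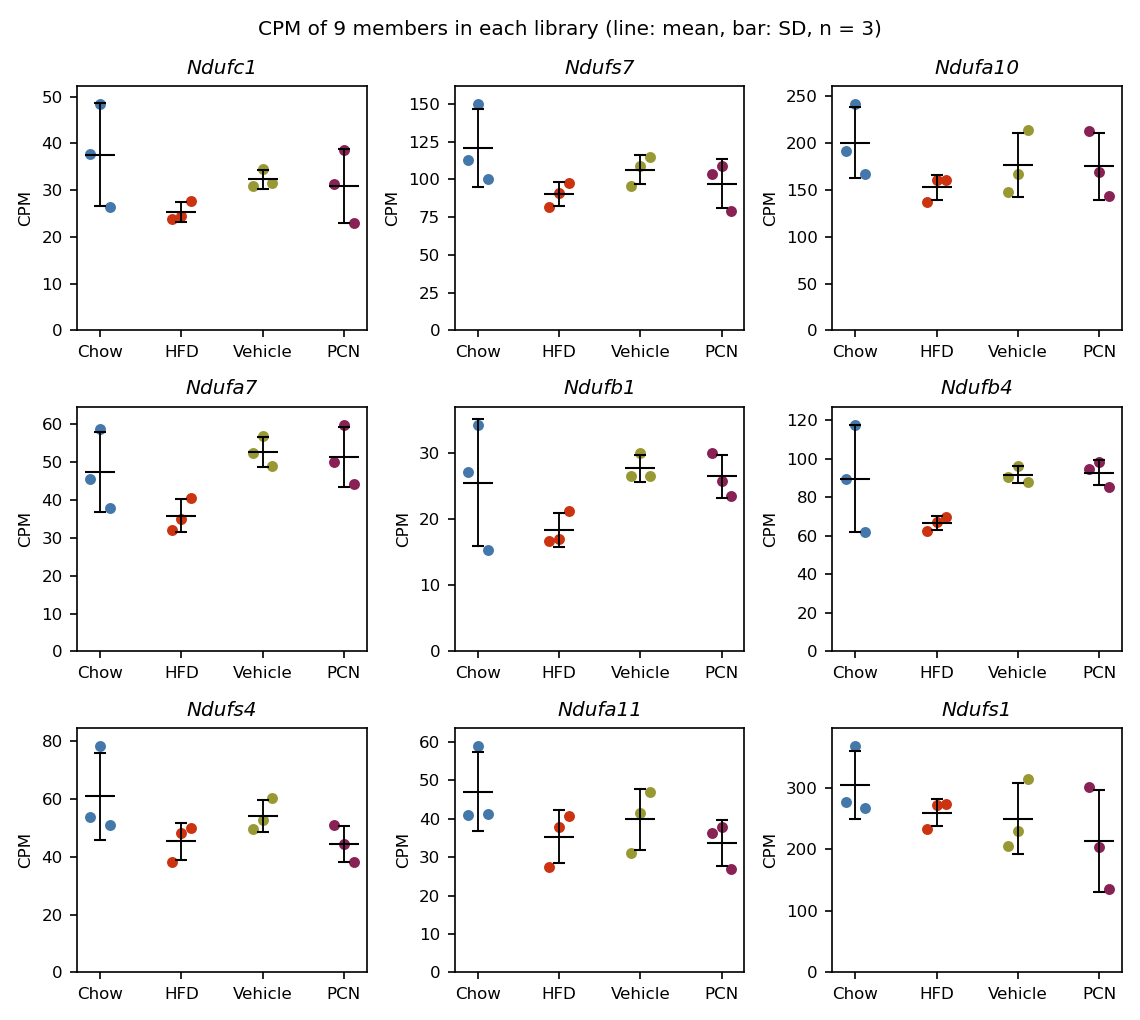
CPM of 9 members in each library, with group mean (line) and SD (bar, n = 3), on axes that start at 0. HFD points lie below all Vehicle and PCN points for Ndufa7, Ndufb1 and Ndufb4, HFD lies below Chow without overlap for Ndufs7, Ndufa10, Ndufs4 and Ndufa11, and PCN 27 is the lowest point for Ndufs1.

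Transcript length moved with the Vehicle and HFD difference. Among 38 members with a principal transcript, the rank correlation between its length and the log2 fold change was -0.48, and over 11588 genes it was -0.43. These are descriptions over genes that share the same libraries. The 24 members under 1000 bases had a median of 0.30, the 10 members of 1000 to 2000 bases 0.27 and the 4 members over 2000 bases 0.01. All genes of those classes had medians of 0.34, 0.17 and -0.06. The length offset used another length, that of all exons of a gene merged (8086 bases for Ndufs1, whose principal transcript length is 2625.5). By this exonic length the rank correlation was -0.45 over members and -0.31 over all genes. With an offset that depends on exonic length, fitted to each library, the members' median was 0.18, and the fitted value of Ndufs1 became 0.071. An unadjusted p under 0.05 was then reached by 6 members, all higher, where 15.1% of all genes reached it and 8.42% did so with a higher level. For HFD minus Chow, the rank correlation with length was -0.04 over members and 0.32 over all genes, and the median with the length offset was -0.26. Red blood cell genes were higher in Vehicle for 5 of 5 (median 1.07, summed level 44.7 to 215 CPM in Vehicle and 49.0 to 60.1 in HFD). Matrix and fibroblast genes were lower for 4 of 5 (median -0.84, 322 to 459 CPM in Vehicle and 486 to 871 in HFD). Adipocyte markers were lower for 7 of 7 (median -0.35, 101.5 to 336 CPM in Vehicle and 107 to 511 in HFD), and macrophage markers for 5 of 6 (median -0.37, 31.7 to 56.2 CPM in Vehicle and 31.04 to 84.0 in HFD). Of these genes Col1a1, a collagen of the matrix, alone passed the adjusted threshold (-1.32 ± 0.22 (SE; edgeR adjusted p = 0.0344)), a call lost in 4 of 6 fits that left out 1 library (adjusted p from 0.077 to 0.203), in the fit of all 12 libraries (0.267) and with the length offset (0.0588). The part of these cell types in the result was not tested.

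**Figure D4:**
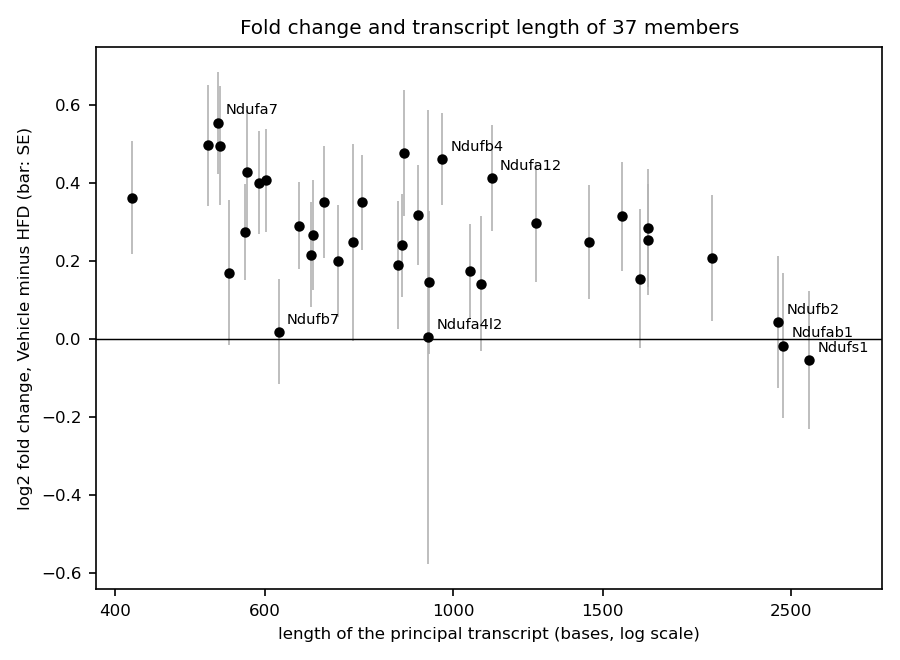
Log2 fold change of 37 members in Vehicle minus HFD, with SE, against the length of the principal transcript on a log axis. Where a member has several principal transcripts, their mean length is plotted. The longest by this measure, Ndufs1, Ndufab1 and Ndufb2, sit between -0.05 and 0.04, and Ndufa7, among the shorter ones, is highest at 0.55.

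PCN was then compared with Vehicle, though a DMSO share is listed for the Vehicle libraries only. Fitted levels were lower in PCN for 38 of 39 members, where 47.7% of all 12833 genes were lower, but the differences were small, with a median log2 fold change of -0.11 (all genes 0.01). No member had an unadjusted p under 0.05, where 2.82% of all genes did, and none passed the adjusted threshold in edgeR or DESeq2 (0.0% of all genes in either). No member had PCN libraries all above or all below the Vehicle libraries, which 4.27% and 4.25% of all genes did. The medians by place were -0.10 (N module), -0.12 (Q module), -0.14 (proximal arm) and -0.07 (distal arm).

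Ndufs4, a late-assembling subunit of the N module (chr13:114287795-114388258), had the lowest p and the lowest log2 fold change of this comparison, -0.28 ± 0.17 (SE; adjusted p = 0.998). It stood at 53.5, 78.2 and 51.0 CPM in Chow, 38.0, 48.2 and 49.8 in HFD, 49.6, 52.6 and 60.4 in Vehicle, and 50.8, 44.3 and 38.3 in PCN. PCN 5 lay within the Vehicle range. All Chow libraries lay above all HFD and all PCN libraries, by as little as 50.96 (Chow 19) against 50.82 CPM (PCN 5) at the edge. Ndufa11, a membrane subunit of the proximal arm, stood at 41.1, 58.9 and 41.2 CPM in Chow, 27.5, 37.8 and 40.8 in HFD, 31.2, 41.5 and 46.9 in Vehicle, and 36.3, 37.8 and 26.9 in PCN. The log2 fold change was -0.24 ± 0.20 (SE; adjusted p = 0.998), and Chow again lay above HFD and PCN without overlap. Ndufc2 (-0.20 ± 0.24 (SE)), Ndufa1 (-0.16 ± 0.20 (SE)) and Ndufs8 (-0.18 ± 0.22 (SE)) came next by p. Ndufb4 was the member with the highest value, 0.02 ± 0.15 (SE).

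The direction rested on PCN 27. Without it the median was 0.04 and 6 members remained below 0. Without Vehicle 55 the median was -0.04. It was -0.22 without PCN 5 and -0.18 without PCN 11. Adipocyte markers were lower in PCN for 7 of 7 (median -1.20, summed level 106 to 134 CPM in PCN and 102 to 336 in Vehicle) and red blood cell genes for 5 of 5 (median -0.62, 63.0 to 76.3 CPM in PCN and 44.7 to 215 in Vehicle). Matrix and fibroblast genes were lower for 5 of 5 (median -0.65, 262 to 440 CPM in PCN and 322 to 459 in Vehicle) and macrophage markers for 4 of 6 (median -0.28, 36.9 to 45.1 CPM in PCN and 31.7 to 56.2 in Vehicle). The part of these cell types in the result was not tested.

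Over the 4 groups together, no member passed an adjusted p of 0.05 in edgeR (0.179% of 13375 genes did) or in DESeq2. An unadjusted p under 0.05 was reached by Ndufa7 alone (adjusted p = 0.259), where 15.5% of all genes reached it. Ndufb4 (adjusted p = 0.377), Ndufs4 (0.381), Ndufb1 (0.404) and Ndufc1 (0.446) followed. By group mean, Chow was highest for 28 members, Vehicle for 10 and PCN for Ndufb4. HFD was lowest for 32 members and PCN for 7. The order Chow, Vehicle, PCN and HFD from high to low was the most frequent, found in 21 members.

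PCN and HFD were also set side by side. In 7 members all PCN libraries lay above all HFD libraries (among them Ndufa3, Ndufa7, Ndufa12, Ndufb1, Ndufb4 and Ndufs5), where 13.5% of all genes did so. Against Chow, all PCN libraries lay below in Ndufa11, Ndufb2 and Ndufs4, 3 of 39 members, where 8.26% of all genes did so. All Vehicle libraries lay below all Chow libraries in Ndufb2 alone, where 7.17% of all genes did so. These pairs were described by overlap and not fitted.

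Among the core subunits of the N module, Ndufv1 binds NADH and the flavin, Ndufv2 carries an iron-sulphur cluster beside it and Ndufs1 leads the electrons on through further clusters. Ndufv1 stood at 184, 246 and 196 CPM in Chow, 149, 174 and 184 in HFD, 154, 173 and 238 in Vehicle, and 233, 178 and 139 in PCN. HFD lay below Chow without overlap, by as little as 184.0 against 184.5 CPM at the edge, while Vehicle and PCN spanned both. Ndufv2 stood at 195, 278 and 149.6 CPM in Chow, 141, 154 and 164 in HFD, 159, 183 and 218 in Vehicle, and 193, 178 and 126 in PCN. Chow 19 lay among the HFD values, and the log2 fold changes were -0.42 ± 0.21 (SE) for HFD minus Chow and 0.28 ± 0.15 (SE) for Vehicle minus HFD. Ndufs1 had another pattern, at 277, 367 and 267 CPM in Chow, 234, 271 and 273 in HFD, 206, 229 and 314 in Vehicle, and 301, 204 and 136 in PCN. Vehicle 15 and Vehicle 23 lay below every HFD library, Vehicle 55 above them all, and the PCN libraries ran from the lowest value of all to the third highest. The correlation of Ndufs1 with the mean of the other members was 0.6997, and its SD after subtracting the members' mean, 0.258, was second only to Ndufa4l2.

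The Q module core includes Ndufs7 at the quinone site, Ndufs8 with its iron-sulphur clusters and Ndufs3, which carries none. Ndufs3 stood at 86.9, 106 and 75.8 CPM in Chow, 65.0, 70.3 and 76.1 in HFD, 76.4, 80.9 and 81.3 in Vehicle, and 84.3, 83.9 and 60.9 in PCN. HFD lay below Vehicle without overlap, by as little as 76.1 against 76.4 CPM at the edge. Ndufs8 varied more, at 86.9, 126 and 69.8 CPM in Chow, 53.5, 70.1 and 83.4 in HFD, 66.6, 70.8 and 91.8 in Vehicle, and 79.8, 73.2 and 48.6 in PCN. Its groups all overlapped, and the lowest and highest library differed by 2.59-fold. Ndufs7 stood at 95.7, 109 and 115 CPM in Vehicle and 104, 109 and 79.0 in PCN, both overlapping HFD.

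Members differed in how closely they followed the shared pattern. After Ndufa4l2 and Ndufs1, the SD after subtracting the members' mean was widest for Ndufb3 (0.249), Ndufb1 (0.247), Ndufa7 (0.213), Ndufb2 (0.204), Ndufb4 (0.202) and Ndufab1 (0.2002). Ndufb3, of the distal arm, stood at 48.3, 83.2 and 53.7 CPM in Chow, 40.2, 49.4 and 60.7 in HFD, 42.6, 53.9 and 82.2 in Vehicle, and 80.7, 50.0 and 31.3 in PCN. All its groups overlapped. Ndufa4l2 (chr10:127514967-127517154) stood at 2.36, 2.63 and 1.24 CPM in Chow, 0.323, 1.75 and 2.67 in HFD, 1.099, 1.74 and 2.06 in Vehicle, and 2.16, 1.20 and 1.11 in PCN, and 4 counts lay behind its value in HFD 4. It varied 8.28-fold between libraries, within HFD alone, and its SE of 0.58 for Vehicle minus HFD was wider than its value of 0.004. Ndufab1, the mitochondrial acyl carrier protein, which also serves fatty acid synthesis in the organelle, stood at 45.1, 67.1 and 47.7 CPM in Chow, 38.4, 49.1 and 49.9 in HFD, 36.0, 41.7 and 58.2 in Vehicle, and 51.7, 43.0 and 27.6 in PCN. All groups overlapped, and its fitted values for HFD minus Chow (-0.20 ± 0.18 (SE)) and Vehicle minus HFD (-0.02 ± 0.19 (SE)) were the nearest to 0 or among the nearest. Ndufb2 of the distal arm was low, at 8.30, 9.48 and 8.88 CPM in Chow, 6.54, 6.78 and 7.52 in HFD, 7.87, 6.23 and 7.42 in Vehicle, and 7.76, 8.13 and 5.52 in PCN. Its Chow libraries lay above those of every other group. Exons of Gm42420 on the same strand, and of Gm16272 and Braf on the other, overlap it.

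Other genes of the pathway moved with the members to differing degrees. Over all genes, 49.9% were lower in HFD than Chow, 49.9% higher in Vehicle than HFD and 47.7% lower in PCN than Vehicle. An unadjusted p under 0.05 was reached by 3.91% of all genes with a lower level in HFD and by 8.66% with a higher level in Vehicle. Of 19 tested complex I assembly factors, 16 were lower in HFD than Chow (median -0.20, 5 with an unadjusted p under 0.05). In Vehicle 16 were higher than in HFD (median 0.19, 3 with p under 0.05), and in PCN 12 were lower than in Vehicle (median -0.03). None of these assembly factors passed the adjusted threshold. Ndufaf4, an assembly factor of the early complex, had a log2 fold change of -0.34 and Ndufaf6 one of -0.54 for HFD minus Chow. For 38 nuclear subunits of complexes II to V, all were lower in HFD than Chow (median -0.41) and 36 were higher in Vehicle than HFD (median 0.28). In PCN, 35 of the 38 were lower than in Vehicle (median -0.12). For Vehicle minus HFD, Atp5g2, a gene of the ATP synthase membrane ring, was the only one of these to pass (0.89, edgeR adjusted p = 0.0246), a call lost in 5 of 6 fits that left out 1 library (adjusted p from 0.0598 to 0.154), in the fit of all 12 libraries (0.116) and with the length offset (0.0551).

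Between HFD and Vehicle, most tested complex I subunits of the mitochondrial genome did not follow the nuclear ones. 6 of 7 were tested. All 6 were lower in HFD than Chow (median -0.28), but 4 of 6 were also lower in Vehicle than HFD (median -0.37), where 37 of 39 nuclear members were higher. mt-Nd5 was at -0.97 ± 0.29 (SE; edgeR adjusted p = 0.120) and mt-Nd3 at 0.97 ± 0.36 (adjusted p = 0.195), the extremes in either direction. Their mean log2 CPM was 9.69, 9.95 and 10.16 in Chow, 9.37, 10.05 and 9.50 in HFD, 9.23, 9.37 and 9.77 in Vehicle, and 9.96, 9.15 and 8.93 in PCN. Chow 19 was the highest of the Chow libraries here and the lowest for the nuclear members. The difference between the nuclear and the mitochondrial subunits was not tested. Over all genes, Vehicle minus HFD moved with transcript length (rank correlation -0.43), and the part of length in the values of these 6 genes was not tested.

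**Figure D5:**
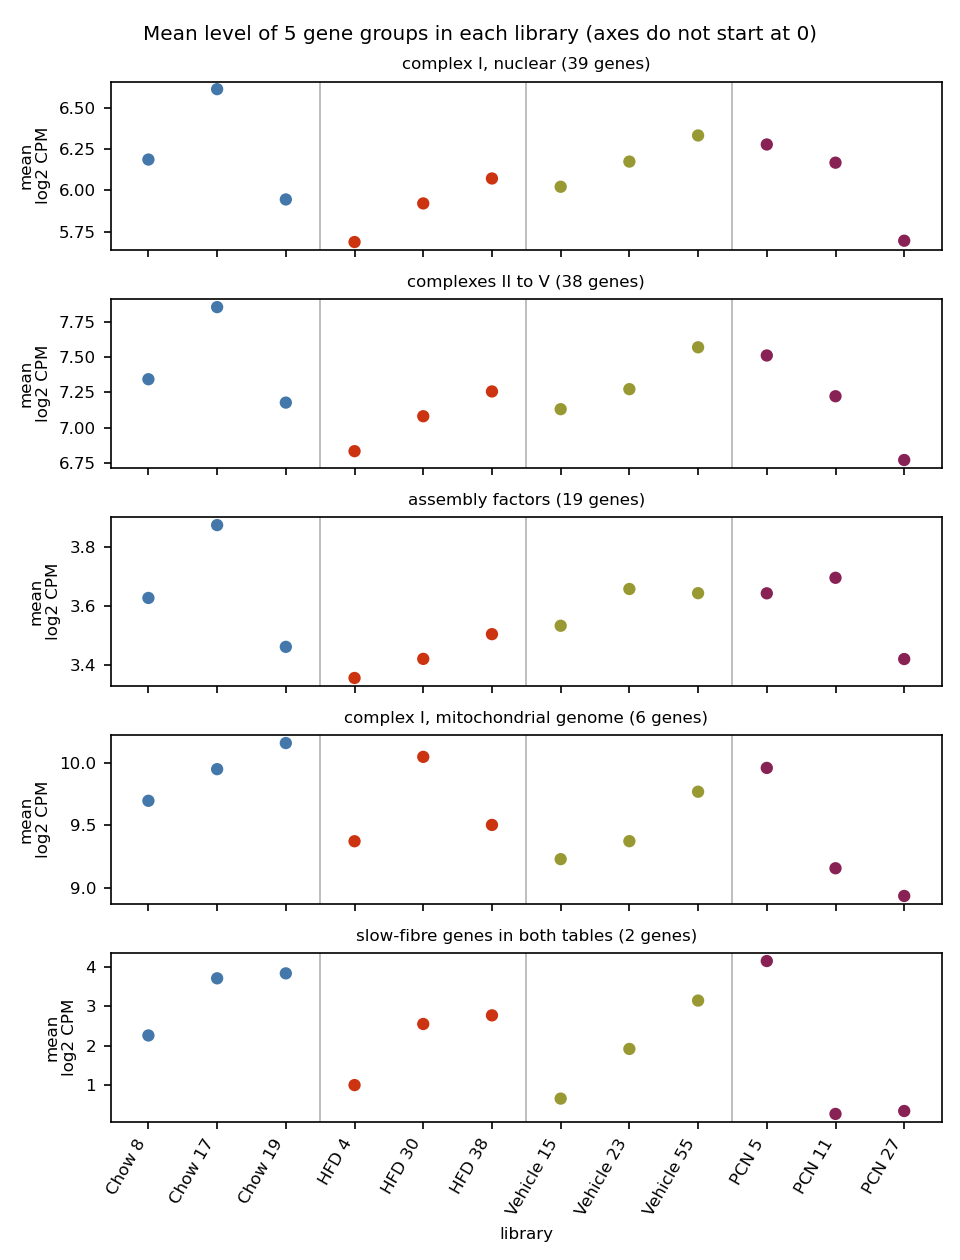
Mean log2 CPM of 5 gene groups in each library, coloured by group, on axes that do not start at 0. Complex I nuclear members and complexes II to V both have Chow 17 highest and HFD 4 and PCN 27 lowest, while the 6 subunits of the mitochondrial genome are highest in Chow 19 and the 2 slow-fibre genes in PCN 5.

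Of 9 regulators of mitochondrial genes, 8 were lower in HFD than Chow, where 49.9% of all genes were lower. In Vehicle 7 were lower than in HFD, where 6387 of 12746 genes were lower. Ppargc1a, the coactivator that drives mitochondrial gene programmes, stood at 183, 53.0 and 94.5 CPM in Chow, 77.3, 89.6 and 72.1 in HFD, 33.9, 31.9 and 52.1 in Vehicle, and 61.5, 48.5 and 34.5 in PCN. Every Vehicle library lay below every HFD library, whereas the members lay higher in Vehicle. Its log2 fold change for Vehicle minus HFD was -1.02 ± 0.19 (SE; edgeR adjusted p = 0.0424), the only call among the regulators. That call was lost in 5 of 6 fits that left out 1 library (adjusted p from 0.0801 to 0.205, against 0.00115 without Vehicle 55), in the fit of all 12 libraries (0.301) and with the length offset (0.0591). Ppargc1b was at -0.83 (adjusted p = 0.241). Perm1, a muscle partner of these coactivators, had the lowest p of the list for HFD minus Chow, at -0.76 ± 0.23 (SE; adjusted p = 0.582).

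The genes outside the members whose level followed the members' mean most closely over the 12 libraries were mostly subunits of other complexes. By Pearson correlation, given as a description, they were Atp5j2 (0.992), Atp5mpl (0.986), Atp5pb (0.982), Cox7b (0.980), Atp5c1 (0.972), Uqcrh (0.972), Atp5h (0.971), Uqcr11 (0.969), Cox7a2 (0.968) and Slc25a4 (0.967). Slc25a4 is the ADP/ATP carrier of heart and muscle. The rest belong to ATP synthase, complex III and the cytochrome oxidase families.

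Since the members moved together, their promoters were searched for 4 motifs linked to respiratory genes. RefSeq windows on GRCm38.p6, from 250 bases before to 50 after the start site, were found for 34 members (36 windows). Members with no entry included Ndufa2, Ndufa4l2, Ndufb9, Ndufs1 and the 3 pseudogenes. The windows were searched on both strands for the core motif of NRF1, the letters of the estrogen-related receptor site AAGGTCA, the ETS site CCGGAAG of GABP, and the YY1 site AAGATGG. No matches of different motifs overlapped. The YY1 letters were in 7 of 36 windows (19.4%) against 6.34% of 32851 windows in all, the estrogen-related receptor letters in 3 (8.33% against 4.72%), the ETS letters in 4 (11.1% against 8.86%) and the NRF1 letters in 1 (2.78% against 0.971%). A match is a description of letters, not a site in use.

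The 7 matches to AAGATGG are shown because they share one place. All lie on the gene's own strand after the start site, and in each of the 7 the ATG inside the match is the annotated start codon. After the start site on the gene's strand, the letters were in 19.4% of the member windows and 1.3% of all windows. This place and strand were taken from the member matches themselves, so the member share could not fall. The search of whole windows on both strands, with 6.34% of all windows, is free of that choice. Neither contrast was tested. Capitals mark the match, and the strand is that of the gene.
Ndufa3: cgccaagaacAAGATGGccgggagtaa
Ndufa9: attgtgggagAAGATGGcggccgccgt
Ndufb8: ggagaaggtgAAGATGGctgcc
Ndufc1: cctgcggaacAAGATGGcgccgtccgt
Ndufs4: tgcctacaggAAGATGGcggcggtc
Ndufs6: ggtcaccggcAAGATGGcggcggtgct
Ndufs7: ggccgaggccAAGATGGcggcgctggc
In order, they lie at chr7:3617385-3617411 (plus strand), chr6:126849099-126849125 (minus), chr19:44555393-44555414 (minus), chr3:51408917-51408943 (minus), chr13:114388045-114388069 (minus), chr13:73328433-73328459 (minus) and chr10:80249463-80249489 (plus).

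The 3 matches to the estrogen-related receptor letters lie 181 (Ndufb2), 55 (Ndufb4) and 228 bases (Ndufs5) before the start site. Capitals mark the match, which in Ndufs5 is the reverse complement.
Ndufb2: gagcagcagtAAGGTCAgccaagagca
Ndufb4: cctgagcctgAAGGTCAgactcgagag
Ndufs5: ttctcgagtgTGACCTTgctcaagtag
They lie at chr6:39592374-39592400 (plus strand), chr16:37654407-37654433 (minus) and chr4:123718398-123718424 (minus). Of these members, Ndufb4 and Ndufs5 had all HFD libraries below all Vehicle and PCN libraries, and Ndufb2 had all HFD, Vehicle and PCN libraries below all Chow libraries. Of all 39 members, 19 had Vehicle wholly above HFD and 7 had PCN wholly above HFD (11.8% and 13.5% of all genes). HFD lay wholly below Chow in 9 members and PCN in 3 (7.04% and 8.26% of all genes). Most of these members lack the letters, and a link between letters and levels was not tested. The ETS letters were found in Ndufb6, Ndufb7, Ndufs3 and Ndufs8, and the NRF1 core in Ndufa11.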

How the data were processed

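Raw gene counts, deposited without normalisation, came in 2 tables of 6 libraries each (Chow with HFD, Vehicle with PCN). HISAT2, HTSeq, DESeq2, GRCm38 and mm10 are listed, without versions, in the submitters' processing notes. The authors' own comparison columns were not used. The values of 1 member are not reported here, though counts and medians over members include it. Members and gene lists, and the rule for named genes (core subunits, those with the lowest p or extreme fold changes or levels, and those least like the others), were chosen with earlier results of these data known.

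Each comparison was fitted to its own 6 libraries, and the 4 groups to all 12, with edgeR 4.0.16 in R 4.3.3 (TMM, expression filter at a minimum count of 10, robust quasi-likelihood F test). P-values were Benjamini-Hochberg adjusted over all genes tested, at 0.05, and scripts were tested on simulated data. SE is the log2 fold change over the square root of F. Levels are CPM with TMM factors over 12 libraries, and mean log2 CPM uses a prior count of 2. Lengths and overlaps came from GENCODE M21 on GRCm38, whose identifiers matched 99.96% of genes. Alternatives were DESeq2 1.42.0, its size factors, no filter or a minimum count of 50, mitochondrial counts left out, all libraries in 1 fit, leaving out libraries, a slow-fibre covariate and a length offset. The covariate was the mean level of 8 slow-fibre genes for HFD minus Chow, and of Myh7b and Tpm3 alone otherwise. The offset used exonic length. Depth, between 12770308 and 19739226 counts a library, limits Ndufa4l2 most.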

Additional observations from a re-analysis of the deposited data

How the results depend on the processing

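No paired analysis was possible because no library number is shared between groups. Over all alternatives run, the median of HFD minus Chow stayed below 0 (-0.50 to -0.17) and that of Vehicle minus HFD above 0 (0.18 to 0.36), while that of PCN minus Vehicle ran from -0.22 to 0.041 when 1 library was left out, with 6 to 38 members below 0. Calls past the adjusted threshold for HFD minus Chow ran from 0 to 2 on leaving out 1 library (2 without Chow 19, where 1.69% of all genes passed). For Vehicle minus HFD they ran from 0 to 3 on leaving out 1 library (Ndufa7, Ndufb1 and Ndufb4 without Vehicle 55, where 9.05% of all genes passed). They were 4 with DESeq2 (7.93% of the genes it tested), 2 with no filter (2.64% of all genes) and 6 with the slow-fibre covariate (4.61%). Members below 0 there were 1 to 8 on leaving out 1 library and 1 with the slow-fibre covariate or the length offset. Without PCN 27, most members changed sign in PCN minus Vehicle. Fitted values of some members named with values also changed sign. On leaving out 1 library, HFD minus Chow of Ndufa4l2 ran from -0.94 to 0.14. PCN minus Vehicle ran from -0.29 to 0.0007 for Ndufa1, from -0.026 to 0.076 for Ndufb4, from -0.38 to 0.031 for Ndufc2 and from -0.33 to 0.008 for Ndufs8. Vehicle minus HFD ran from -0.44 to 0.62 for Ndufa4l2, from -0.24 to 0.13 for Ndufab1, from -0.26 to 0.071 for Ndufs1, from -0.010 to 0.31 for Ndufs8 and from -0.053 to 0.28 for Ndufv1. For HFD minus Chow, Ndufab1 turned to 0.14 (slow-fibre covariate) and 0.029 (without Chow 17 and Chow 19, which leaves Chow 8 alone). For Vehicle minus HFD, Ndufab1 turned to 0.018 (slow-fibre covariate) and 0.078 (length offset). With the length offset, Vehicle minus HFD was -0.13 for Ndufa4l2 and 0.071 for Ndufs1, and PCN minus Vehicle was -0.0074 for Ndufb4. The cause of these changes was not tested.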
